A study of Homo sapiens with 18 samples.

Results

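Unirradiated H446 cells were compared with unirradiated BEAS-2B cells, the baseline against which a radiation response of either line would be read. BEAS-2B is a line of human bronchial epithelial cells immortalized with viral oncogenes, and H446 is sold as a human small cell lung cancer line. The comparison rests on 6 of the 18 libraries of the series, 3 controls of each line, labelled wild type and given no radiation. Both lines came from a cell bank and were grown in the same serum-containing medium. Each is a single cell line, so whatever separates these cultures cannot be told apart from what separates lung cancer cells from bronchial epithelium in general. The other libraries are those of the same lines 24 h after 10 Gy of X-rays and those of A549, a lung adenocarcinoma line. The question addressed is which genes already differ between these lines before any radiation. Genes entered the comparison when their value was at least 1 in at least 3 of these 6 libraries, which 12245 of the 18475 genes of the table did. The remaining 6230 genes were below that filter, and a gene read in a single line passed through that line alone.

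The values are read as FPKM, a level scaled to transcript length and to the reads of the library, and a difference is the log2 fold change of FPKM + 1 with its standard error (SE) from limma. A positive log2 fold change means a higher value in the H446-labelled libraries. A fold, where given, is the ratio of the mean FPKM of the lines without the added 1. For low values it is therefore larger than the log2 fold change implies. The summed FPKM was 470558 to 481987 in the H446-labelled libraries and 493839 to 529936 in the BEAS-2B libraries. Relative depth, read from the steps between low values of 5 to 13 short genes per library, lay between 0.969 and 1.03. Pearson correlations on the log2 scale were 0.994 to 0.998 within a line and 0.804 to 0.807 between the lines. Of the irradiated libraries, which are used below only for values side by side, BEAS-2B 10 Gy replicate 2 stood apart in a few genes. Over all genes its correlations with replicates 1 and 3 were 0.995 and 0.99, and that of replicates 1 and 3 was 0.995. The CDK inhibitor gene CDKN1A was at 102.24 in that library against 309.73 and 487.79 in the other BEAS-2B 10 Gy libraries.

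Small cell lung cancer is a neuroendocrine tumour. Its cells typically carry vesicle proteins such as chromogranin A (CHGA) and synaptophysin (SYP), and the adhesion molecule NCAM1, and most have lost RB1. Tumours that lack these features are grouped by POU2F3, a tuft cell factor, or by activity of the co-activator YAP1. Bronchial basal cells, the progenitors of the airway surface, carry keratins KRT5 and KRT14 and the factor TP63, while KRT7, KRT8 and KRT18 mark simple epithelia.

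The neuroendocrine markers of small cell cancer that could be read were below the filter or lower in the H446-labelled libraries than in BEAS-2B. In the H446-labelled libraries CHGA was at 0.05, 0.00 and 0.00 FPKM, and SYP was at 0.09, 0.29 and 0.19. CHGB, a second chromogranin gene, was listed at 0.00 in all 3. These genes were at or near 0 in both lines and below the filter. Of 12 small cell markers 9 were analysed, and NEUROD1, INSM1 and GRP were not analysed here. The summed FPKM of the 9 in the H446-labelled libraries was 43.4 to 44.9 against 380 to 399 in BEAS-2B. UCHL1, a neuronal ubiquitin hydrolase (chr4:41256928-41268455), was at 23.51, 22.51 and 22.64 in the H446-labelled libraries and at 265.88, 258.47 and 284.58 in BEAS-2B, 11.8-fold higher in the latter. ENO2, the neuronal enolase, was at 20.59, 20.33 and 21.04 against 107.03, 119.00 and 107.58. NCAM1 was at 0.01, 0.00 and 0.00 against 4.56, 5.48 and 3.93, and DLL3, a Notch ligand of neuroendocrine tumours, was at 0.52, 0.15 and 0.30 against 2.10, 1.58 and 2.34. NCAM1 and DLL3 passed the filter through BEAS-2B alone, so their direction was fixed by it, while UCHL1 and ENO2 passed in both lines and were lower in the H446-labelled libraries. POU2F3 was at 0.23, 0.20 and 0.33 in the H446-labelled libraries and at 0.00, 0.00 and 0.05 in BEAS-2B, below the filter. YAP1 was at 46.94, 45.23 and 45.94 against 44.56, 47.77 and 40.98, with overlapping groups (log2 fold change 0.05 ± 0.06, adjusted p = 0.429 in limma). Some small cell tumours lack the neuroendocrine markers, as given above, so these values do not settle the label. The libraries are therefore called H446-labelled here, and no other cell type is assigned to them.

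The BEAS-2B libraries held the simple keratins KRT7 (316.81, 326.16 and 302.41), KRT8 (517.04, 548.17 and 500.30) and KRT18 (464.38, 492.53 and 490.92), each lower than in the H446-labelled libraries, but little of the basal programme. KRT5 was at 0.00, 0.03 and 0.00 and TP63 at 0.18, 0.15 and 0.16, and KRT14 was listed at 0.00 in all 3. Of 10 bronchial basal markers 5 passed the filter. KRT14, KRT17, ITGA6 and ITGB4 were higher in the H446-labelled libraries, and DSC3 was lower. Their summed FPKM was 841 to 911 in the H446-labelled libraries and 201 to 224 in BEAS-2B. The sum rests on KRT17, a keratin of basal and stressed epithelium (chr17:41619442-41624575), at 762.86, 721.33 and 792.18 against 162.01, 173.84 and 159.30 (4.60-fold). KRT5 was also at or near 0 in the H446-labelled libraries, at 0.03, 0.00 and 0.00.

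**Figure D1:**
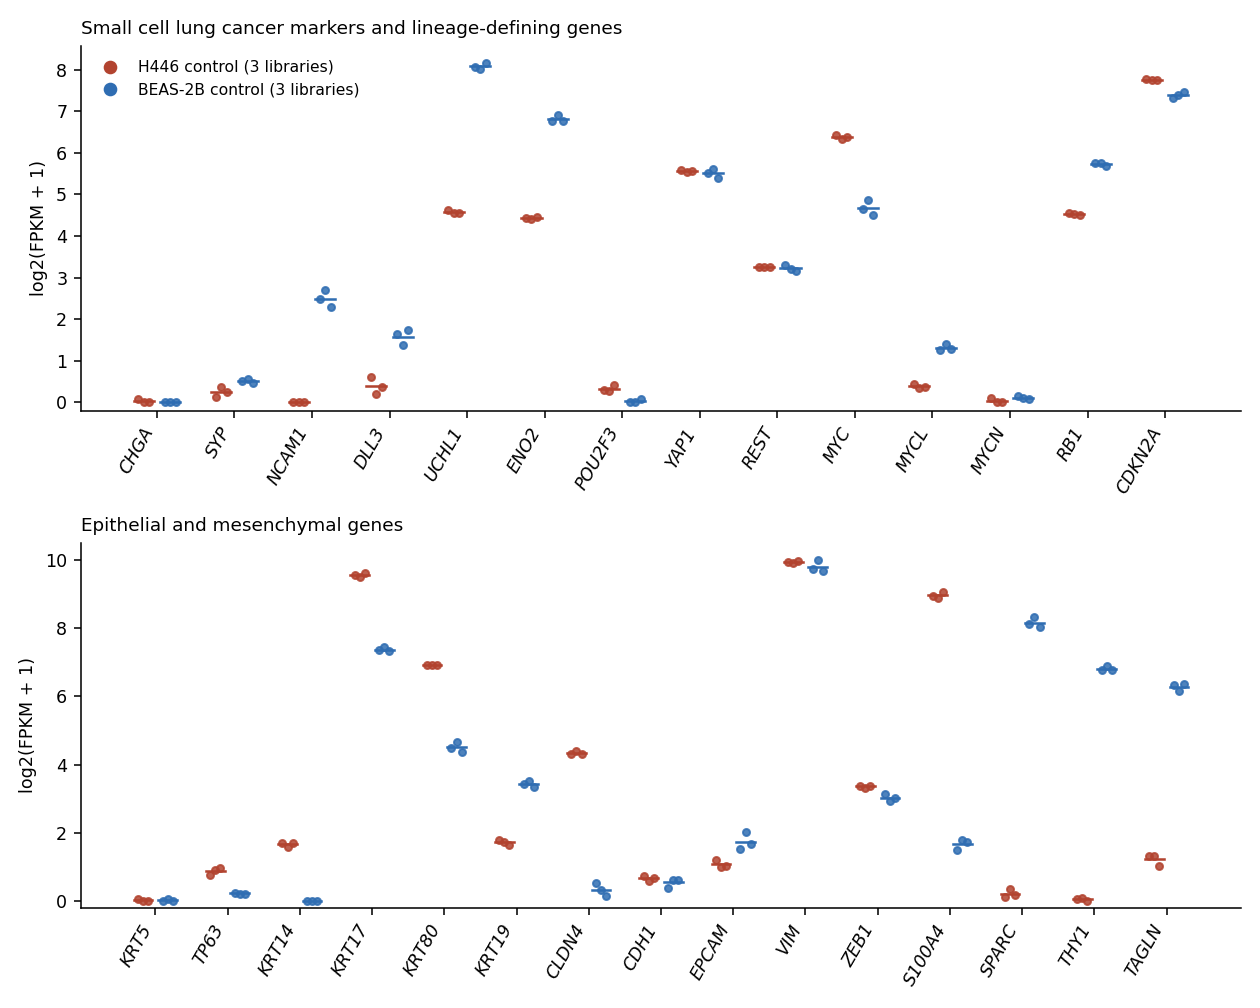
log2(FPKM + 1) of named genes in the 3 H446 control libraries (red points) and the 3 BEAS-2B control libraries (blue points), with a horizontal line at the mean of each line. CHGA and KRT5 lie at or near 0 in both lines, UCHL1, ENO2 and NCAM1 lie higher in BEAS-2B, KRT17 lies higher in the H446-labelled libraries, and YAP1, REST and VIM overlap.

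Markers of other cell types were read in the same libraries, because cells of another type in a culture would add their RNA. In bulk RNA, fewer cells of a type and less RNA per cell cannot be told apart. Of 10 fibroblast markers 7 passed the filter, with 4 higher (FAP, DCN, LUM, COL3A1) and 2 lower (THY1, PDGFRB) in the H446-labelled libraries, all but LUM having passed through a single line. Their summed FPKM was 34.2 to 36.0 in the H446-labelled libraries and 130 to 145 in BEAS-2B, and COL1A2 was listed at 0.00 in all 3 H446-labelled libraries. Most of the BEAS-2B sum was THY1, at 108.62, 117.66 and 108.66. Of the immune markers 9 of 10 were analysed and 2 passed, CD14 and CD68. Only CD14 was past the fold limit, at 0.31, 0.22 and 0.30 against 7.80, 9.20 and 7.38, while the leukocyte marker PTPRC was at most 0.08 in any of the 6 libraries. PECAM1 was the only endothelial marker of 8 to pass, at 4.03, 3.40 and 4.0 against 0.00, 0.00 and 0.02, with CDH5 at or near 0 in both lines. Of 8 alveolar markers 2 passed, and ABCA3 was lower, at 0.23, 0.32 and 0.26 against 4.07, 5.31 and 3.87. SFTPA1 was listed at 0.00 in all 6 libraries. The part of these markers in the results below was not tested.

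The lines differed in most genes. At an adjusted p under 0.05, 10154 of the 12245 genes (82.9%) differed, 4418 higher (36.1%) and 5736 lower (46.8%) in the H446-labelled libraries. Since so many passed, counts over gene lists below use a second limit, a log2 fold change of at least 1 in either direction. With it 3086 genes (25.2%) differed, 1433 higher (11.7%) and 1653 lower (13.5%). With a filter of 1 in every library the count was 1865, with 890 higher and 975 lower. The balance turned with the scaling, to 1604 higher and 1447 lower with equal library totals and to 1529 and 1505 with quantile normalization. Of the 1433 higher genes 476 were below 1 in every BEAS-2B library, and of the 1653 lower genes 602 were below 1 in every H446-labelled library, so the filter itself fixed their direction. This limit also holds for such members of the lists below. List counts are to be read beside the shares of all genes. The values of the lines did not overlap in 10318 genes (84.3%). The median log2 fold change of all tested genes was -0.11 and the median size was 0.53. In 155 genes the size was at least 4, with 118 of them higher and 37 lower in the H446-labelled libraries. These p-values measure the spread between 3 libraries of each line, which the labels do not describe as separate cultures and which may be technical. With 3 libraries a line the smallest exact permutation p is 0.10, so statements on genes rest on limma. Genes named in the text with a size of at least 1 had an adjusted p of at most 4.39e-06 (DLL3), and no overlap between the lines.

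The same contrast in the irradiated libraries shares no library with the controls. There 9730 of 12227 genes (79.6%) differed, and 3244 (26.5%) did so with the fold limit. Of the 3086 control genes, 3046 were tested in the irradiated libraries and all 3046 had the same sign there. With the fold limit 2642 were called in the same direction, 85.6% of the control genes and 81.4% of the irradiated ones. For some genes the size of the line difference was not the same after radiation. GDF15, a stress cytokine, was at 53.67, 50.04 and 55.54 against 2.18, 1.85 and 1.96 in the controls. After 10 Gy it was at 35.49, 35.28 and 33.89 against 29.71, 3.01 and 32.06, the low value being BEAS-2B 10 Gy replicate 2. Its log2 fold change after 10 Gy was 1.17 ± 0.64 with that library and 0.17 ± 0.07 without it. CDKN1A, the CDK inhibitor p21, differed little in the controls (75.72, 72.81 and 71.66 against 79.93, 86.36 and 86.08, log2 fold change -0.19 ± 0.05, adjusted p = 0.00494), a call lost with equal library totals (adjusted p = 0.166) and with all 18 libraries in 1 fit (adjusted p = 0.574). After 10 Gy it was at 72.44, 63.57 and 65.85 against 309.73, 102.24 and 487.79. The log2 fold change was then -1.88 ± 0.43, and -2.51 ± 0.15 without BEAS-2B 10 Gy replicate 2.

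**Figure D2:**
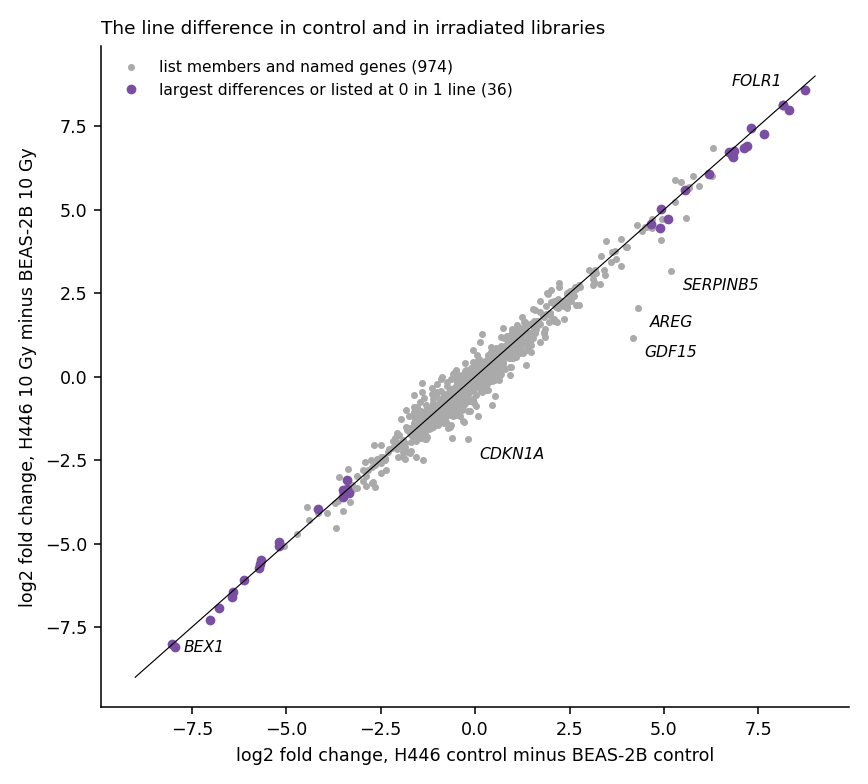
Log2 fold change between the lines in the control libraries (horizontal axis) against the same in the irradiated libraries (vertical axis) for 974 list members and named genes, with the 36 genes of the largest differences or listed at 0 in a single line in purple and the line of equality in black. Points lie along the line, with GDF15, AREG, SERPINB5 and CDKN1A below it.

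The 12 largest rises were of genes at most at 2.44 FPKM in every BEAS-2B library and above 100 in every H446-labelled one. FOLR1, the folate receptor alpha (chr11:72189709-72196323), was at 1145.15, 1058.90 and 1120.27 in the H446-labelled libraries and at 1.98, 1.19 and 1.65 in BEAS-2B, 690-fold higher (log2 fold change 8.74 ± 0.10). KYNU, kynureninase of tryptophan breakdown, was at 324.43, 318.69 and 335.67 against 0.16, 0.16 and 0.12. CGA, the shared alpha chain of the gonadotropins and thyrotropin, was at 338.97, 320.27 and 346.90 against 0.10, 0.00 and 0.10. KYNU and CGA were below 1 FPKM in every BEAS-2B library, as were SPINK6, CRIP1, TNS4, AKR1C2, PSCA, SMOC1 and PRSS21, named below. For these genes the filter fixed the direction. FOLR1 was above 1 in every BEAS-2B library. SPINK6, an inhibitor of kallikrein proteases, was at 303.01, 284.78 and 305.32 against 0.13, 0.00 and 0.00. S100A4, a calcium-binding protein of motile cells, was at 496.22, 469.25 and 532.96 against 1.83, 2.44 and 2.33 (227-fold). CRIP1, TNS4, OASL, AKR1C2, PSCA, SMOC1 and PRSS21 complete the 12 largest rises, with log2 fold changes from 6.73 (PRSS21) to 7.65 (CRIP1). TNS4 encodes tensin 4, a focal adhesion protein, and PRSS21 a membrane serine protease of the testis.

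In the other direction BEX1, a small signalling adaptor of neural cells (chrX:103062651-103064171), was at 0.09, 0.00 and 0.09 against 277.72, 253.72 and 298.60 in BEAS-2B (log2 fold change -8.03 ± 0.07). SPARC, a matrix glycoprotein of mesenchymal cells (chr5:151661096-151686915), was at 0.08, 0.27 and 0.13 against 276.04, 318.66 and 264.10 (-7.95 ± 0.08). NPPB, the precursor of brain natriuretic peptide, was at 0.00, 0.12 and 0.23 against 133.46, 144.96 and 153.16. THY1, a surface glycoprotein of fibroblasts and neurons, was at 0.03, 0.07 and 0.00 against 108.62, 117.66 and 108.66. These 4 genes were near the floor in the H446-labelled libraries and above 100 FPKM in every BEAS-2B library, so the filter fixed their direction. CLDN11, MAGED1, CCL2, RBP7, F2R, LAYN, IFITM1 and TMEM255A complete the 12 largest falls, with log2 fold changes from -6.43 (CLDN11) to -5.19 (TMEM255A). F2R, the thrombin receptor, was the only 1 of these 8 besides IFITM1 with every H446-labelled value above 1, at 1.44, 1.44 and 1.53 against 122.36, 147.47 and 113.67. The rest of the 8 were below 1 in every H446-labelled library, so their direction was fixed as well.

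Some genes were listed at 0 in all 3 libraries of a line. In BEAS-2B this held for 59 genes that reached at least 1 in every H446-labelled library, 17 of them with a mean of at least 10. The highest were S100P, a calcium-binding protein of many carcinomas (71.89, 69.53 and 75.84), the tetraspanin TSPAN8 (47.37, 42.42 and 48.82), RNF212 (34.40, 32.44 and 33.35), MARCOL (29.75, 28.98 and 28.48), the protease inhibitor SPINK4 (29.09, 28.08 and 28.59) and the tumour antigen PRAME (25.03, 23.85 and 24.13). The reverse held for 72 genes, but only 3 of those had a mean of at least 10. They were the histone variant gene MACROH2A2 (16.81, 16.54 and 17.06 in BEAS-2B), PCSK1N, an inhibitor of a prohormone convertase (9.21, 11.08 and 10.77), and TMSB15B, a thymosin (10.18, 9.10 and 11.69), followed by KRABD1, ZNF90 and EYA2. A listed 0 need not mean that no transcript was present, so no fold is given for these genes. PRAME was also at 0.00, 0.00 and 0.03 in the irradiated BEAS-2B libraries, and MACROH2A2 at 0.06, 0.12 and 0.06 in the irradiated H446-labelled ones.

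The neuroendocrine lists showed no common direction. Of 31 analysed transcription factors 10 passed the filter, with 5 higher and 2 lower (median log2 fold change 1.07, and 0.48 with the filter of 1 in every library). Of these 7, 4 higher and both lower members were below 1 in every library of the other line, so the filter fixed their direction. ONECUT2 was at 8.24, 7.99 and 7.87 against 0.08, 0.15 and 0.12. The LIM factor ISL1 (3.17, 2.91 and 3.0 against 0.19, 0.12 and 0.19), LHX2 (3.11, 3.02 and 3.70 against 0.32, 0.31 and 0.27) and SOX4 (8.65, 8.61 and 8.96 against 2.04, 2.28 and 2.2) were higher as well, all at levels below 10. ZNF711 and POU4F1 were lower, POU4F1 at 0.02, 0.00 and 0.02 against 1.25, 1.11 and 1.38. Of 34 analysed secretory and vesicle genes 13 passed, with 3 higher and 4 lower (median -0.24, and -0.15 without BEAS-2B control replicate 2), and the filter fixed the direction of 3 higher and 3 lower members in the same way. PCSK1, a prohormone convertase, was at 3.87, 3.89 and 3.67 against 0.00, 0.03 and 0.00, and DNAJC12 and SNAP25 were higher below 4 FPKM. RAB3B, a vesicle GTPase, was at 0.60, 0.61 and 0.74 against 14.81, 16.34 and 13.31, and NMB and SYT11 were also lower.

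Of 38 neuronal cytoskeleton and RNA-binding genes 21 passed, with 4 higher and 12 lower (median -1.43), against 11.7% and 13.5% of all genes. The filter fixed the direction of 4 of the higher and 7 of the lower members. The neuronal intermediate filament genes INA (12.51, 11.80 and 11.60 against 0.00 in each) and NEFH (7.71, 7.69 and 8.39 against 0.04, 0.02 and 0.04) were higher, as were MAP2, a dendritic microtubule protein, and CRMP1. TUBB2B, a neural tubulin, was at 0.12, 0.20 and 0.05 against 27.80, 28.43 and 29.52, and ELAVL2, a neuronal RNA-binding protein, was at 0.00, 0.00 and 0.02 against 11.50, 10.21 and 10.03. The lower members also held BEX1 and UCHL1, given above. Of 22 analysed neural adhesion and surface genes 11 passed, 4 higher and 4 lower (median -0.08, but 1.01 with the filter of 1 in every library, -0.02 without BEAS-2B control replicate 2 and -0.05 without H446 control replicate 3). Among the lower members 3 passed through BEAS-2B alone, which fixed their direction. L1CAM, a neural adhesion molecule, was at 80.03, 77.67 and 75.23 against 34.41, 44.00 and 32.35, and CD24 at 69.90, 64.96 and 68.73 against 18.45, 16.37 and 16.73. IGF1R was 4.02-fold higher, and the receptor kinase KIT was at 0.00, 0.00 and 0.01 against 3.49, 3.42 and 3.15.

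MYC is amplified in some small cell lines, in place of its relatives MYCL and MYCN. MYC was at 84.99, 80.05 and 82.76 against 23.91, 27.92 and 21.50 (3.38-fold, log2 fold change 1.72 ± 0.08). MYCL was at 0.35, 0.28 and 0.29 against 1.39, 1.66 and 1.42, and MYCN was at most 0.12 in any library and below the filter. Of 11 tested members of the MYC family 2 were higher (MYC and its antagonist MXD1) and 1 lower (MXD3), with a median of 0.24. The Notch list had 16 tested members, 5 higher and 1 lower (median 0.57). The ligand JAG2 was at 12.22, 12.32 and 12.42 against 3.62, 4.03 and 3.59, the receptor NOTCH3 at 7.39, 7.59 and 6.31 against 1.55, 2.66 and 2.05, and the target HEY1 at 2.77, 2.15 and 2.94 against 0.28, 0.19 and 0.49. LFNG, which modifies Notch, and NRARP were higher too, and the co-activator MAML2 was lower (2.98, 3.08 and 2.86 against 7.64, 8.42 and 6.87). REST, the repressor of neuronal genes, overlapped between the lines at 8.61, 8.48 and 8.57 against 8.86, 8.22 and 7.94 (log2 fold change 0.03 ± 0.06, adjusted p = 0.621).

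YAP and TAZ are transcriptional co-activators that are held back by the Hippo kinases and drive genes of growth and matrix. All 36 members of their list were tested, with 1 higher and 13 lower in the H446-labelled libraries (median -0.71). The secreted matrix protein CCN2 was at 11.01, 11.09 and 11.37 against 89.03, 112.43 and 82.99 (8.50-fold higher in BEAS-2B, log2 fold change -2.97 ± 0.09). TGFB2 was at 3.12, 3.35 and 3.40 against 53.03, 57.12 and 45.17, and F3, the tissue factor that starts coagulation, at 45.66, 44.92 and 43.78 against 203.22, 196.49 and 175.07. AMOT, a YAP-binding scaffold, was below 0.2 in every H446-labelled library. The only member called higher was FOXF2, at 9.74, 8.27 and 8.94 against 0.63, 0.78 and 0.96. FOXF2 and AMOT each passed the filter through a single line, which fixed their direction. YAP1 itself did not differ beyond its error, as given above.

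Of 27 analysed airway keratin and differentiation genes 15 passed the filter, with 10 higher and 1 lower (median 1.39). The keratins alone were 9 of these 15, with 7 higher and 1 lower, and another 7 keratins were below the filter. Among the 10 higher genes 3 had their direction fixed by the filter. PERP, a desmosome protein, was at 291.86, 285.16 and 289.61 against 41.32, 48.74 and 36.80 (6.83-fold). The epithelial factors KLF5 (107.23, 105.23 and 105.09 against 15, 18.54 and 14.76) and EHF (5.88, 5.32 and 5.54 against 0.04, 0.02 and 0.01) were higher, as was KRT80 (120.76, 120.22 and 120.30 against 21.50, 24.31 and 19.70). KRT19, a keratin of simple and airway epithelium, was the lower member, at 2.47, 2.31 and 2.10 against 9.73, 10.48 and 9.18. Junction genes were mixed, with 4 of 26 tested members higher and 6 lower (median -0.21). The claudin CLDN4 was at 19.05, 19.98 and 18.82 against 0.43, 0.25 and 0.11, and the splicing factor ESRP2 and the plakoglobin gene JUP were higher. CDH3 (P-cadherin), OCLN (occludin) and PKP1 were among the lowest members. CDH1, the E-cadherin gene, stayed below the filter in both lines, at 0.66, 0.49 and 0.61 against 0.31, 0.53 and 0.54. EPCAM was at 1.29, 0.99 and 1.04 against 1.86, 3.06 and 2.19.

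The mesenchymal state list, genes of cells that have left the epithelial form, had 33 tested members, 7 higher and 14 lower (median -0.80). For 4 of the lower members the filter fixed the direction. The contractile protein gene TAGLN was at 1.49, 1.48 and 1.03 against 80.22, 70.20 and 80.67 (57.8-fold higher in BEAS-2B), and the matrix protein gene THBS2 at 0.03, 0.00 and 0.04 against 20.14, 24.29 and 18.43. With SPARC and THY1, given above, these were the largest falls. Among the higher members besides S100A4 were the fibrillin gene FBN1 (78.14, 78.43 and 78.06 against 7.43, 9.71 and 6.33), FBLN1 (137.14, 133.89 and 133.02 against 21.04, 25.70 and 21.24) and the factor TWIST2 (21.72, 19.66 and 19.68 against 3.16, 3.15 and 2.89). VIM, the intermediate filament vimentin, overlapped at 984.51, 971.62 and 1012.86 against 850.68, 1024.24 and 819.39 (log2 fold change 0.15 ± 0.09, adjusted p = 0.145). It was called with quantile normalization (0.43, adjusted p = 0.00123), with equal library totals (0.25, adjusted p = 0.028) and without BEAS-2B control replicate 2 (0.24, adjusted p = 8.94e-04). ZEB1, a repressor of epithelial genes, was at 9.41, 9.01 and 9.40 against 7.77, 6.67 and 7.06 (0.33 ± 0.07).

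Of 36 tested collagens, laminins and integrins 18 were higher, 7 lower and 11 not called (median 0.99). Of these, 2 higher and 5 lower members, COL18A1 among the latter, passed the filter through a single line, which fixed their direction. ITGA2, a collagen-binding integrin chain, was at 95.49, 93.69 and 92.07 against 1.27, 1.14 and 1.16 (78.8-fold). The laminin chains LAMA4 (28.81, 27.88 and 30.48 against 0.20, 0.32 and 0.42) and LAMA5 (54.52, 52.34 and 49.82 against 2.57, 2.86 and 2.54) and the type IV collagen chain COL4A6 (37.99, 37.13 and 35.35 against 2.06, 2.39 and 1.94) rose with it. The lower members were led by COL18A1 (0.27, 0.23 and 0.10 against 15.54, 20.50 and 15.26), by the type VI collagens COL6A1 and COL6A2, and by ITGB3, a vitronectin receptor chain. In the plasminogen and metalloproteinase list 8 of 20 tested members were higher and 6 lower (median 0.44, but 1.03 with the filter of 1 in every library and 0.09 with no filter). Among the lower members 3 had their direction fixed by the filter. The protease inhibitors SERPINE2 (331.17, 316.86 and 330.35 against 8.07, 8.43 and 5.94) and SERPINB5 (68.28, 69.18 and 68.39 against 1.05, 0.75 and 0.96) were the highest, followed by ADAM12 and TIMP3. The urokinase gene PLAU went the other way at 3.17, 2.63 and 2.83 against 22.76, 27.22 and 24.57, as did the membrane protease genes MMP14 and MMP24.

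TGF-beta and the related BMPs signal through SMAD proteins, and the ID genes are read-outs of BMP signalling. Of 30 tested members of this list 9 were higher and 7 lower (median 0.49). The ligand BMP2 (chr20:6767686-6780246) was at 54.17, 54.31 and 54.64 against 0.16, 0.06 and 0.04. ID1 was at 238.75, 217.47 and 226.82 against 41.46, 42.53 and 41.26, ID3 at 129.48, 125.12 and 125.94 against 17.47, 16.83 and 19.82, and the co-receptor TGFBR3 at 12.29, 12.75 and 12.48 against 1.34, 1.28 and 1.23. These genes were separated by 5.45-fold or more. The ligand BMP4 was at 0.45, 0.46 and 0.60 against 8.77, 9.91 and 9.19, and FSTL1, a secreted BMP antagonist, at 74.95, 79.64 and 78.61 against 439.44, 458.56 and 413.67. TGFB2 was lower as well.

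**Figure D3:**
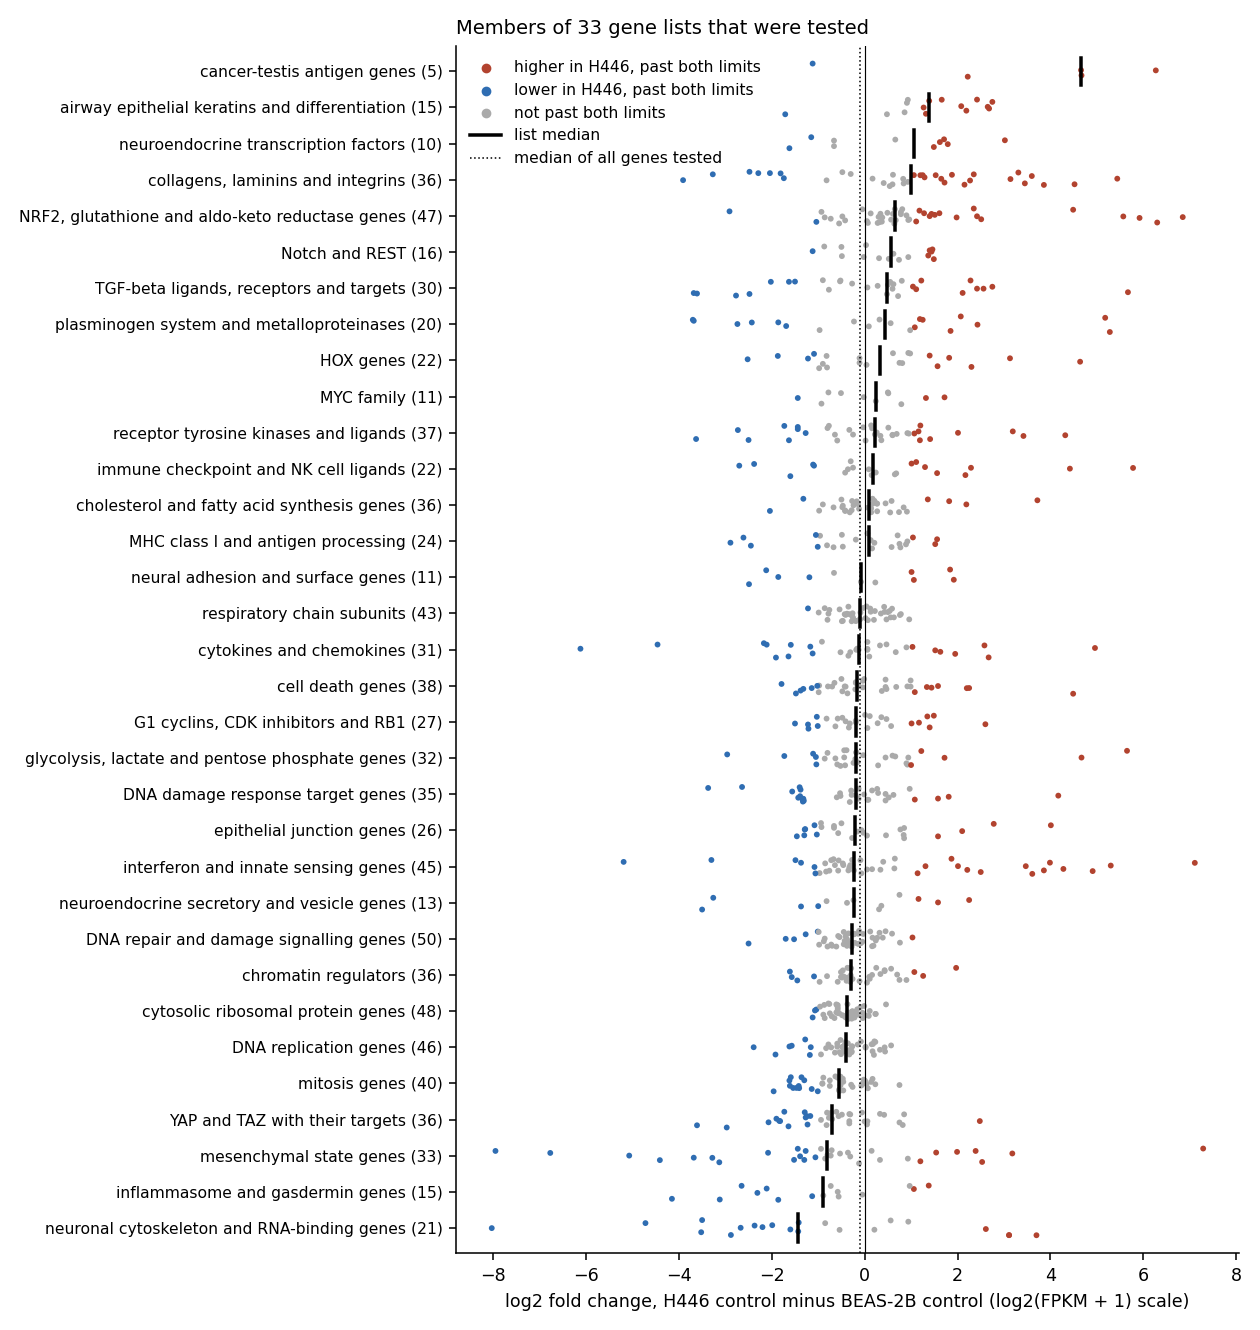
Log2 fold changes of the tested members of 33 gene lists, 1 point a gene, in red where higher and in blue where lower in H446-labelled libraries past both limits (adjusted p under 0.05 and a size of at least 1), in grey otherwise. A black bar marks each list's median, a dotted line the median of all genes tested (-0.11), and the number of tested members stands in parentheses.

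Interferons bind surface receptors and act through factors that include STAT2 and IRF9, which bind the interferon-stimulated response element in the promoters of antiviral genes. The sensors RIGI and IFIH1 detect viral RNA and signal through MAVS. All 45 interferon and innate sensing genes were tested, with 14 higher and 6 lower (median -0.23), and without the fold limit 19 were higher and 23 lower. OASL, an oligoadenylate synthetase-like antiviral protein (chr12:121017761-121039246), was at 283.78, 266.63 and 269.92 against 1.24, 0.86 and 0.89 (274-fold). ISG15, a ubiquitin-like protein (chr1:1013497-1014540), was at 1156.99, 1019.89 and 1120.20 against 35.23, 33.55 and 38 (30.9-fold, log2 fold change 4.91 ± 0.07). IFI44 was at 116.69, 109.71 and 115.98 against 1.77, 1.94 and 2.06, and OAS1 at 67.52, 63.91 and 65.24 against 2.87, 2.24 and 2.21. The other 10 higher members were BST2, IFIT2, IFI44L, RIGI, IFIT3, IFIT1, OAS2, ISG20, IFIH1 and TLR3, with log2 fold changes from 1.14 (TLR3) to 3.99 (BST2). RIGI was at 45.04, 46.49 and 45.48 against 3.44, 3.03 and 3.15. Among the 6 lower members IFITM1, a membrane protein that blocks viral entry, was at 3.31, 3.85 and 3.55 against 157.87, 163.65 and 175.20 (46.4-fold higher in BEAS-2B). TRIM22 was at 0.07, 0.09 and 0.04 against 10.04, 8.58 and 9.86, IRF7 at 1.38, 1.5 and 1.55 against 5.6, 6.42 and 5.83, and MAVS at 7.97, 7.96 and 7.80 against 21.79, 23.39 and 20.81. SAMHD1 and MX2 were lower too.

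The interferon-driven genes therefore did not move as a block. These factors and the receptors were lower by less than the fold limit, with log2 fold changes of -0.83 ± 0.05 for STAT2, -0.64 ± 0.10 for IRF9, -0.57 ± 0.06 for IFNAR1 and -0.85 ± 0.06 for IFNAR2. MX1 was at 7.0, 7.83 and 7.26 against 8.76, 10.31 and 9.40, and IFI27 overlapped at 1.97, 1.44 and 1.17 against 1.44, 1.08 and 2.62 (-0.07 ± 0.18, adjusted p = 0.715). These 6 genes, and the interferon genes named only by their log2 fold change or as further lower members, with RIGI, were chosen after their values were seen. The type I interferon gene IFNB1 was at 0.09, 0.18 and 0.09 in the H446-labelled libraries and listed at 0.00 in each BEAS-2B library, below the filter. IFITM1 belongs to a family of near-identical copies whose reads may be shared.

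The promoters of these genes were searched for the core of the interferon-stimulated response element, spelled GAAANNGAAA on either strand, in the 250 bases before the start. Of all 27305 RefSeq promoters 3.71% held a match, and of those of 10017 tested genes 3.25% did. Of the 14 interferon genes called higher 11 had a promoter in the table and 8 held the match (72.7%). Of the 6 called lower 3 had a promoter and 1 held it (IFITM1), and of the 25 not called 18 had a promoter and 5 held it (27.8%). Since the list was chosen for interferon genes, a share above that of all promoters follows from the choice. The list also holds sensing genes, and how far its make-up sets the shares of each call was not tested. The stretches below show genes that were higher, IFITM1 that was lower and IFI27 that overlapped, so that the same letters can be seen beside different outcomes. They are RefSeq sequence of GRCh38.p14, 5′ to 3′ on the strand of the gene, with the matches in capitals (the second strand reads TTTCNNTTTC), and overlapping matches run together.
ISG15, chr1:1013339-1013444, plus strand: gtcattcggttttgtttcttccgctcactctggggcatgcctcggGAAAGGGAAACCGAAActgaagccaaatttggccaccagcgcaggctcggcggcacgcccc
IFI44, chr1:78649726-78649788, plus strand: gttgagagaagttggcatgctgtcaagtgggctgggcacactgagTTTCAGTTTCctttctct
IFIT1, chr10:89392462-89392574, plus strand: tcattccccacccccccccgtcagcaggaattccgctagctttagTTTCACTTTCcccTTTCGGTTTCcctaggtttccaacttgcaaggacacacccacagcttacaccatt
BST2, chr19:17405700-17405805, minus strand: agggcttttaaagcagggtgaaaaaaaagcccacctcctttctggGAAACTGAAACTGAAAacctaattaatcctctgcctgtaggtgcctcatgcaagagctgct
IFITM1, chr11:313955-314039, plus strand: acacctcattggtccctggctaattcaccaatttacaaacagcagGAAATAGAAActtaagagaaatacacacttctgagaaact
IFI27, chr14:94110583-94110695, plus strand: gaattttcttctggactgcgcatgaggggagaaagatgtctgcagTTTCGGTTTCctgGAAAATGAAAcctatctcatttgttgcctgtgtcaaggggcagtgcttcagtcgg

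ISG15, IFIT1 and BST2 each held 2 matches, as did IFI27, which did not differ between the lines, and IFI44 and IFITM1 each held 1 match, at 18 and 40 bases before the start. A match is a string of letters and says nothing of binding in these cells.

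MHC class I molecules present peptides to T cells. Of 24 tested genes of this pathway 3 were higher (12.5%) and 5 lower (20.8%), against 11.7% and 13.5% of all genes (median 0.09). B2M, the shared light chain, was at 3673.55, 3474.99 and 3798.78 against 1778.96, 1606.87 and 1945.03 (2.05-fold), and the transactivator NLRC5 was at 6.17, 6.33 and 6.57 against 1.48, 1.68 and 1.56. TAPBPL, a peptide editor, was also higher. The immunoproteasome subunit PSMB9 was at 8.04, 7.27 and 8.21 against 49.00, 43.38 and 49.36, the peptidase ERAP2 at 2.90, 2.68 and 2.46 against 22.22, 20.39 and 21.98, and CD74, a class II chaperone, at 0.65, 0.73 and 0.38 against 9.39, 12.23 and 10.56. The heavy chain gene HLA-E was lower, at 53.97, 53.01 and 54.06 against 108.73, 116.29 and 112.32. HLA genes differ in sequence between people, and reads may map unevenly to the reference.

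Of 22 tested checkpoint and NK cell ligand genes 8 were higher and 5 lower (median 0.19). CD55, which protects cells from complement, was at 2093.33, 1933.02 and 2014.52 against 36.67, 36.72 and 33.43 (56.6-fold). The NK ligand genes RAET1E (29.08, 27.21 and 28.58 against 0.45, 0.31 and 0.34) and NCR3LG1 (14.41, 15.42 and 14.17 against 2.15, 2.19 and 2.28) and the T cell co-stimulator TNFSF9 were higher. CD274, which encodes PD-L1, was at 0.61, 0.80 and 0.88 against 9.11, 7.17 and 8.29, and its relative PDCD1LG2 at 1.04, 0.83 and 0.88 against 5.25, 4.12 and 5.12. ICAM1, an adhesion partner of leukocytes, was at 10.32, 10.10 and 10.06 against 67.17, 86.80 and 63.36, and the NK ligand ULBP2 was lower too. CD276, or B7-H3, was at 65.93, 64.06 and 63.49 against 28.52, 37.49 and 29.46.

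Cytokine genes split, with 7 of 31 tested members higher and 9 lower (median -0.13, but 0.06 with the filter of 1 in every library, 0.05 with quantile normalization, -0.06 without BEAS-2B control replicate 2 and -0.09 without H446 control replicate 3). Of these, 3 higher and 4 lower members were below 1 in every library of the other line, so the filter fixed their direction. CCL2, a monocyte attractant, was at 0.54, 0.86 and 0.21 against 94.76, 107.04 and 112.00 (log2 fold change -6.12 ± 0.13). CCL5, a T cell attractant, went the other way at 74.80, 72.06 and 69.08 against 1.78, 1.06 and 1.24 (4.96 ± 0.10). The alarmins IL1A (17.89, 15.43 and 17.22 against 2.03, 1.55 and 1.81) and IL33 (5.04, 4.90 and 4.94 against 0.00 in each) and the receptor TNFRSF1B were higher. IL32 was at 1.53, 1.15 and 1.70 against 50.34, 51.93 and 57.14, and the chemokine genes CCL28 and CXCL1 were lower. IL1B, the cytokine that the inflammasome matures, was at 14.84, 14.20 and 14.40 against 15.07, 17.51 and 17.17 (log2 fold change -0.18 ± 0.07, adjusted p = 0.0243). That call was lost with equal library totals (adjusted p = 0.305), with all 18 libraries in 1 fit (adjusted p = 0.363) and without any 1 of 4 of the libraries.

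Inflammasomes are complexes in which a sensor such as NLRP3 recruits the adaptor PYCARD (ASC) and caspase-1, which cleaves IL-1 beta and gasdermin D. Of 25 analysed members 15 passed the filter, with 2 higher and 7 lower (median -0.89). The sensor NLRP3 was listed at 0.00 in all 3 H446-labelled libraries and at 0.38, 0.54 and 0.32 in BEAS-2B, below the filter. The adaptor PYCARD was at 1.25, 0.72 and 0.61 against 31.27, 28.32 and 35.48 (36.8-fold higher in BEAS-2B, log2 fold change -4.15 ± 0.12), and the effector GSDMD at 6.24, 7.05 and 6.67 against 26.15, 24.79 and 29.60 (-1.86 ± 0.07). CASP1 went the other way, at 19.76, 21.40 and 22.90 against 10.20, 9.26 and 9.69 (2.2-fold), with the caspase-1 inhibitor CARD16 at 28.40, 29.49 and 29.66 against 10.78, 9.29 and 11.85. Thus the adaptor and the pore-forming effector were lower while the protease was higher. TXNIP (5.95, 6.73 and 6.06 against 58.60, 65.20 and 62.58), the sensor NLRP2 (0.00 in each against 5.02, 5.81 and 4.99) and the ATP-gated channel P2RX4 were lower. CARD16 and CASP1 are near-identical over part of their length and may share reads.

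NRF2 (NFE2L2) drives genes that detoxify electrophiles and make glutathione. Of 47 tested members of its list, aldo-keto reductases included, 16 were higher and 2 lower (median 0.65). The reductases AKR1C1 (149.05, 146.79 and 141.22 against 0.72, 0.89 and 1.0), AKR1C2 (144.82, 139.28 and 140.93 against 0.26, 0.13 and 0.32) and AKR1C3 (213.58, 213.20 and 219.91 against 2.76, 2.14 and 2.90) lie side by side on chromosome 10, at chr10:4963415-4983283, chr10:4987775-5018000 and chr10:5048781-5107686. AKR1C1 and AKR1C2 are near-identical copies, and the split of reads between them is uncertain. ALDH3A1, an aldehyde dehydrogenase, was at 53.66, 49.59 and 53.17 against 0.05, 0.10 and 0.21, and SLC7A11, the cystine importer for glutathione, at 49.27, 48.38 and 47.41 against 1.27, 1.19 and 1.11 (40.6-fold). The lower members were GSTM2 (0.43, 0.52 and 0.25 against 9.47, 10.02 and 9.08) and SOD1 (212.95, 215.43 and 222.38 against 445.36, 413.76 and 483.53). The NRF2 target TXNRD1 was at 304.83, 304.15 and 310.50 against 535.29, 464.96 and 528.87 (log2 fold change -0.73 ± 0.07), and NFE2L2 itself was at 53.45, 51.62 and 51.49 against 49.16, 49.52 and 50.54 (0.07 ± 0.05, adjusted p = 0.187). KEAP1, which holds NRF2 back, had a log2 fold change of -0.93 ± 0.06. TXNRD1, NFE2L2 and KEAP1 were chosen after their values were seen.

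**Figure D4:**
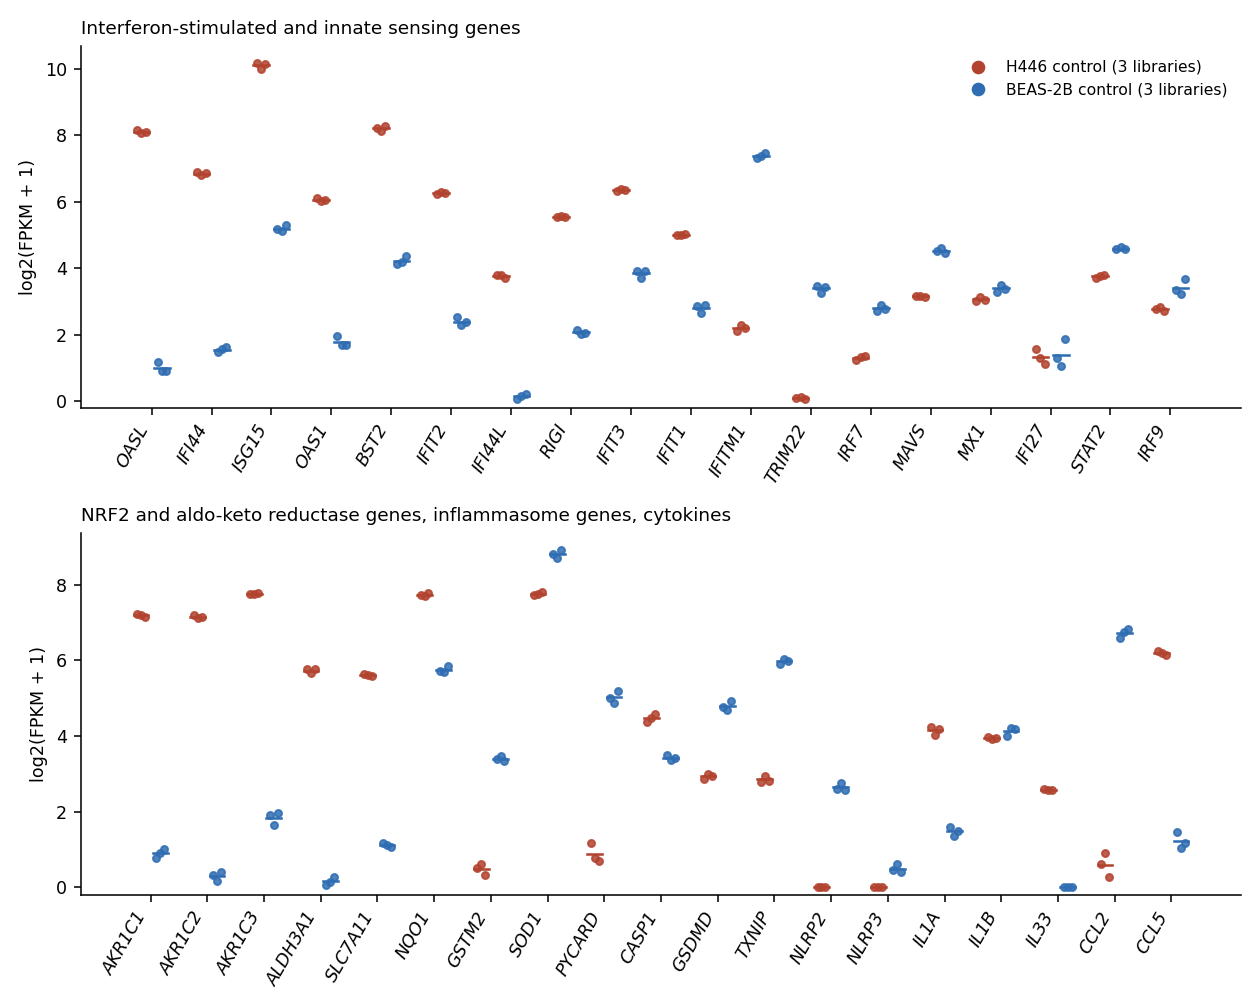
log2(FPKM + 1) of interferon and innate sensing genes (upper panel) and of NRF2, inflammasome and cytokine genes (lower panel) in the 3 H446 control libraries (red) and the 3 BEAS-2B control libraries (blue), with a line at each mean. OASL, ISG15, AKR1C1 to AKR1C3 and CCL5 lie higher in the H446-labelled libraries, IFITM1, PYCARD and CCL2 lie higher in BEAS-2B, and IFI27 overlaps.

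Of 37 tested receptor tyrosine kinase and ligand genes 9 were higher and 8 lower (median 0.22). Of these, 2 higher and 4 lower members passed the filter through a single line, which fixed their direction. The EGFR ligands AREG (41.52, 39.64 and 43.53 against 1.51, 1.52 and 0.54) and EREG (9.55, 8.89 and 8.61 against 0.08, 0.08 and 0.12) were higher, and so was their receptor EGFR, at 25.45, 25.34 and 24.51 against 10.51, 12.52 and 9.34. A further EGFR ligand, HBEGF, was lower at 2.01, 2.03 and 2.14 against 8.85, 10.46 and 8.31. MST1R, a MET relative, was at 12.12, 12.19 and 11.57 against 0.23, 0.18 and 0.22, and FGF2 was 4.23-fold higher. PDGFRB, a receptor of mesenchymal cells, was at 0.01 in each H446-labelled library against 11.28, 13.92 and 9.78, and the AXL ligand gene GAS6 at 6.57, 6.50 and 7.40 against 41.87, 44.81 and 42.76. IGFBP2, which binds insulin-like growth factors, was lower as well.

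RB1 and the CDK inhibitors hold cells before S phase, and cyclins release them. RB1 was present in the H446-labelled libraries, at 22.37, 21.87 and 21.62 against 52.59, 53.04 and 50.40 (log2 fold change -1.21 ± 0.05). CDKN2A, the p16 and ARF gene, was at 215.82, 212.28 and 212.94 against 157.91, 166.08 and 174.46 (0.36 ± 0.05). Of 27 tested genes of this list 6 were higher and 5 lower (median -0.19). The cyclin genes CCND1 (85.63, 91.37 and 88.57 against 30.78, 34.80 and 27.40), CCND3 and CCNE1 were higher by 2.70-fold to 2.86-fold, and the inhibitor CDKN1C was at 24.29, 23.35 and 22.15 against 2.14, 3.79 and 3.25. RBL1, a relative of RB1, and the inhibitor genes CDKN2D and CDKN3 were lower.

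Of 35 tested genes of a DNA damage response target list 4 were higher and 11 lower (median -0.19). The kinase gene PLK2 was at 30.29, 29.69 and 28.94 against 321.82, 316.79 and 308.38 (10.6-fold higher in BEAS-2B), and FDXR at 4.05, 3.46 and 3.77 against 27.58, 28.76 and 29.67. GADD45A and CCNG1 were also lower. Besides GDF15 the higher members were CMBL and the death receptor genes FAS (14.30, 14.48 and 14.16 against 4.48, 4.05 and 3.82) and TNFRSF10A. Protein activity was not measured. Of 38 tested cell death genes 7 were higher (18.4%) and 6 lower (15.8%), against 11.7% and 13.5% of all genes (median -0.16). The largest rise was that of SLC7A11, given above. The death ligand TNFSF10 was at 27.05, 28.30 and 27.09 against 4.50, 4.67 and 5.89, and MLKL, the effector of necroptosis, at 17.70, 16.89 and 19.03 against 3.11, 2.89 and 3.30. The mitochondrial death gene BAX was at 25.47, 26.58 and 25.65 against 65.44, 67.06 and 65.69, with BOK, BID and the inhibitor BIRC2 also lower.

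Of 46 tested DNA replication genes 0 were higher and 7 lower past the fold limit (15.2%, against 13.5% of all genes), with a median of -0.41. Without that limit limma called 8 higher and 33 lower (71.7%, against 46.8% of all genes). TK1, the S phase thymidine kinase, was at 30.77, 29.99 and 29.27 against 156.45, 166.13 and 162.26 (5.39-fold higher in BEAS-2B), and the replication clamp PCNA at 150.17, 151.56 and 159.85 against 458.54, 443.58 and 475.64. GINS1 was also among the largest falls. Of 40 mitosis genes 0 were higher and 12 lower past the fold limit (30.0%), with a median of -0.55, and without that limit 4 were higher and 30 lower (75.0%). The phosphatase CDC25C was at 12.10, 12.06 and 12.97 against 50.63, 46.75 and 56.41, and UBE2C, AURKB and HMMR were lower by log2 fold changes between -1.62 (HMMR) and -1.59 (AURKB). Of 50 repair and damage signalling genes 1 was higher (MGMT, 2.23-fold) and 5 lower (median -0.27). SLFN11, which blocks stressed replication forks, was at 8.11, 8.34 and 8.59 against 54.53, 49.19 and 51.81 (6.21-fold higher in BEAS-2B, log2 fold change -2.50 ± 0.06). H2AX, BRCA1 and RAD54B were also lower. The share of cells in each phase was not measured.

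Among 36 tested chromatin regulators 3 were higher (CBX2, HMGA1, KMT2D) and 4 lower (SMARCA1, HMGB2, EZH1, TET1), with a median of -0.29. These counts are 8.33% and 11.1%, against 11.7% and 13.5% of all genes. The architectural protein gene HMGA1 was at 341.07, 326.98 and 333.37 against 128.46, 163.94 and 127.56, and its relative HMGB2 at 87.94, 96.55 and 95.46 against 278.11, 269.26 and 291.64. EZH2, the methyltransferase of Polycomb complex PRC2, was at 24.36, 23.12 and 22.69 against 31.56, 26.73 and 28.26 (log2 fold change -0.29 ± 0.07). HOX genes keep a record of body position, and 6 of 22 tested were higher and 4 lower (median 0.33). For 3 of the higher genes (HOXC10, HOXA7 and HOXB13) and 2 of the lower ones the filter fixed the direction. HOXC10 was at 30.67, 29.13 and 31.09 against 0.30, 0.20 and 0.27, HOXA7 at 7.89, 8.94 and 7.59 against 0.10, 0.00 and 0.03, and HOXB13 at 3.73, 4.31 and 4.06 against 0.02 in each. HOXC8, from the same cluster as HOXC10, was at 1.01, 0.94 and 0.80 against 9.25, 11.70 and 9.21, and HOXB2, HOXB3 and HOXC4 were lower. Cancer-testis antigens are proteins of germ cells that tumours can switch on. Of 38 analysed genes 5 passed the filter. The 4 that were higher had passed through the H446-labelled libraries alone, which fixed their direction. CT83 was at 83.74, 80.67 and 84.31 against 0.00, 0.28 and 0.00, MAGEA1 at 25.09, 27.08 and 23.48 against 0.00, 0.04 and 0.04, and SPANXB1 at 5.44, 2.38 and 4.53 against 0.00, 0.18 and 0.00, beside PRAME. SPA17 was lower. MAGEA1 and SPANXB1 belong to families of near-identical copies.

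Of 32 tested glycolysis, lactate and pentose phosphate genes 4 were higher (12.5%) and 5 lower (15.6%), against 11.7% and 13.5% of all genes (median -0.19). The muscle enolase ENO3 was at 90.50, 86.71 and 86.04 against 0.69, 0.66 and 0.97, the glucose transporter SLC2A3 at 51.05, 48.19 and 46.90 against 0.95, 1.02 and 0.89, and PFKFB2 and PGD were also higher. ALDOC was at 4.67, 3.5 and 3.79 against 35.50, 39.48 and 37.70, with PDK1, PFKL and PFKFB4 lower. Of 43 respiratory chain subunits 1 was past the fold limit, NDUFA2 (45.32, 38.64 and 43.71 against 104.38, 84.39 and 114.78), and the list median was -0.10. Of 48 cytosolic ribosomal protein genes 3 were lower (RPL38, RPS25 and RPL27, log2 fold changes -1.12, -1.07 and -1.04) and 0 higher, with a median of -0.37, and without the fold limit 3 were higher and 36 lower. Cholesterol and fatty acid genes had 4 of 36 higher (11.1%) and 2 lower (5.56%), with a median of 0.10, and 0.04 without BEAS-2B control replicate 1. Among the higher members, the lipogenic genes SCD, SREBF1 and FASN were 4.65-fold, 3.83-fold and 2.6-fold higher. TM7SF2, a sterol reductase, was 5.33-fold higher in BEAS-2B and FADS2 2.6-fold.

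Position along the genome was not used to choose the genes. The 12189 tested genes with a position fell on 41 chromosome arms, and the arm medians of the log2 fold change lay between -0.57 and 0.39 for all but 20p and 5p. On 20p the median over 102 genes was -1.27, and 62.7% of them were called lower with the fold limit, against 13.5% of all genes. Each H446-labelled library on its own gave the same picture, with 20p medians of -1.26, -1.27 and -1.28 below the BEAS-2B mean. Against A549 controls, the 20p median was -1.15 for the H446-labelled libraries and 0.11 for BEAS-2B, while over all genes these medians were 0.03 and 0.12. The drop was thus seen against both other lines. The long arm, 20q, had a median of -0.40 over 217 genes. ADAM33 (0.00, 0.06 and 0.04 against 8.70, 8.45 and 10.36), C20orf96 and PLCB4 were the lowest genes on 20p, and BMP2, FERMT1 and PLCB1 the highest. MAVS, PCNA and GINS1, named above as lower, lie on 20p, as does SNAP25, named above as higher (log2 fold change 1.16).

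On 5p the median over 98 genes was 0.68, with 35.7% called higher against 11.7% of all genes. The 5p medians of the 3 H446-labelled libraries were 0.66, 0.68 and 0.69, and on 5q the median was -0.51. Against A549 controls the 5p median was 1.3 for the H446-labelled libraries and 0.59 for BEAS-2B, so both lay above A549. With A549 as the only reference, a low 5p in A549 cannot be told apart from a raised 5p in both. NPR3, a natriuretic peptide receptor, was at 55.74, 55.14 and 55.56 against 2.21, 2.56 and 2.03, with ANKH and OTULINL next, and EGFLAM, ADAMTS12 and FBXL7 were the lowest. In the irradiated libraries the medians were -1.35 on 20p and 0.71 on 5p. DNA copy number was not measured, and its part in these arm medians was not tested.

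**Figure D5:**
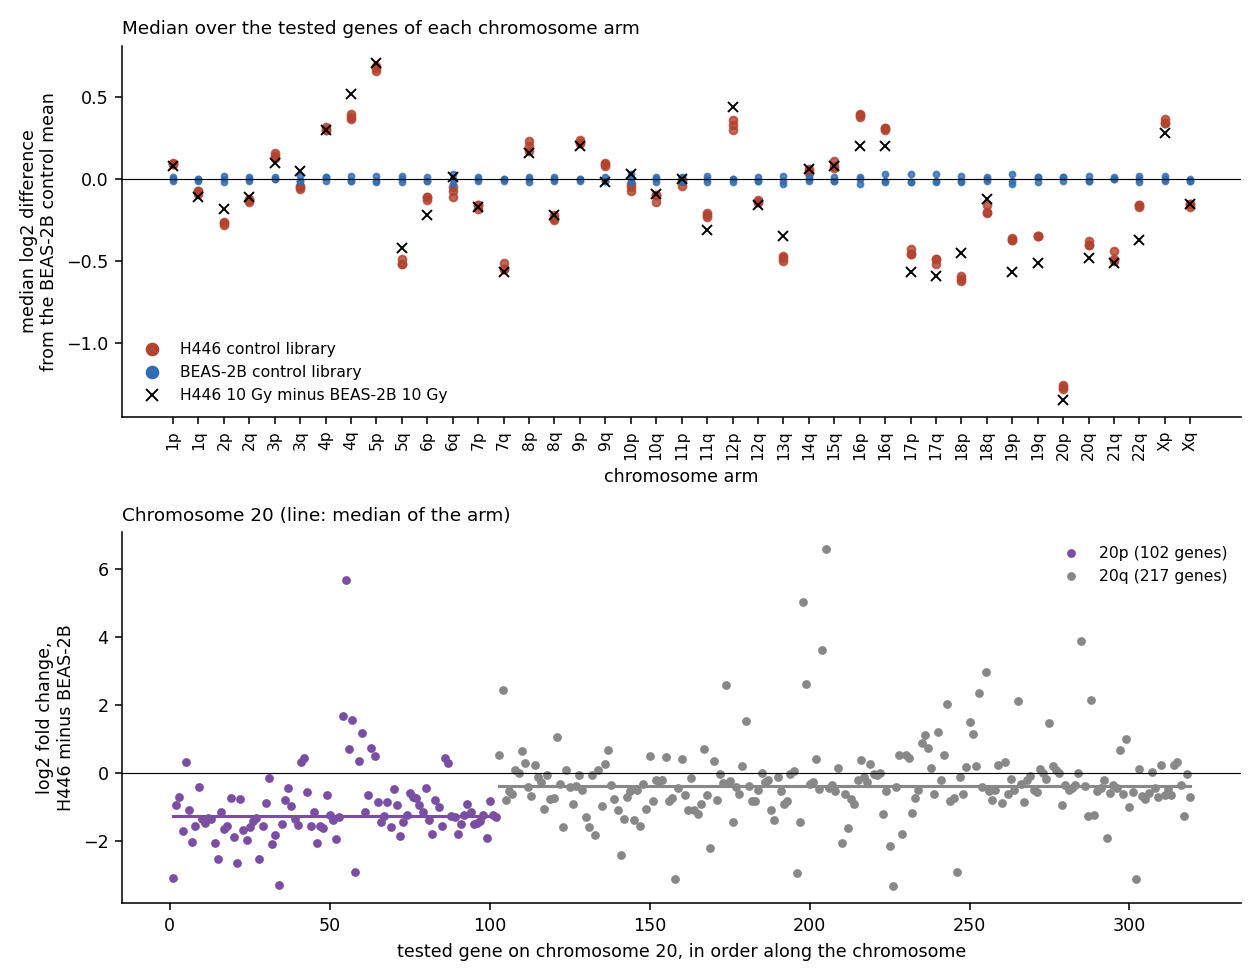
Upper panel, median log2 difference from the BEAS-2B control mean over the tested genes of each chromosome arm, for each H446 control library (red), each BEAS-2B control library (blue) and for the irradiated contrast (black crosses). Lower panel, log2 fold change of tested genes in order along chromosome 20, with 20p in purple (median -1.27) and 20q in grey (median -0.40).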

How the data were processed

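Poly(A) RNA of cultured cells was sequenced by the authors as single-end reads of 50 bases. Per the labels, the submitters' processing notes name HISAT2 2.0.4, Bowtie2 2.2.5, RSEM 1.2.12 and build hg38. The authors deposited a table of normalized values, taken here as FPKM. The unit is not stated and was inferred from totals that differ between libraries and from steps that are larger in short genes. Depth in reads is therefore unknown. Of 18475 genes, 18181 matched an Entrez identifier, and positions and promoters are those of RefSeq for GRCh38.p14. An arm was split at the widest stretch without a gene.

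The 3 H446 control and 3 BEAS-2B control libraries, grouped by their labels, were compared on log2(FPKM + 1) with limma 3.58.1 (lmFit, eBayes with a trend) in R 4.3.3, for genes at 1 or more in at least 3 libraries, with Benjamini-Hochberg adjustment over all genes tested. The 39 gene lists (33 of biology, 6 of markers) are described by counts and medians without a set test. Members and lists were chosen with earlier results of these data known. Named genes are, apart from those not reported here, up to 4 of the largest calls per list and direction, lineage-defining genes, the 12 largest differences per direction, the 6 highest genes listed at 0 in the other line, and the outer 3 genes of an arm. Some listed genes were not analysed here, and some results are not reported here. Replicate numbers did not pair the libraries (correlations of deviations 0.01, 0.04 and 0.01). Python 3.11.15 with numpy 2.4.6, scipy 1.17.1 and pandas 2.3.3 was used for tables.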

Additional observations from a re-analysis of the deposited data

How the results depend on the processing

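The number of differing genes held under the alternatives tried. It was 10172 with the replicate number as a block (a replicate block, although the numbers do not pair the libraries), against 10154, and it was 9682 to 10438 when each library was left out in turn, with 4175 to 4552 higher and 5507 to 5886 lower. With the fold limit it was 3054 to 3145 without a library (1423 to 1465 higher, 1631 to 1680 lower). A filter of 1 in every library removes genes read in a single line and left 1865 genes with the fold limit, 890 higher and 975 lower, in place of 3086, 1433 and 1653. No filter gave 12015 calls of 17393 genes, and a limit of 0.01 on the adjusted p gave 9341. No scaling moved the median of all genes by more than 0.09, and equal library totals put 49.1% of the calls higher, against 43.5%. With the fold limit the share higher was 46.4%, 52.6% with equal totals and 50.4% with quantile normalization. In the irradiated contrast the counts were 9167 to 9932 when each library was left out, with 9726 without BEAS-2B 10 Gy replicate 2.

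Of 263 named genes tested, 259 kept direction and side of the threshold under the alternatives that gave them a value, which was all 16 for 153 genes and all but the filter of 1 in every library for 110. YAP1 turned to -0.0033 without BEAS-2B control replicate 3, the lowest of its values with a library left out, which reached 0.1. CDKN1A was no longer called with equal totals or with all 18 libraries in 1 fit, and VIM was called with quantile normalization (0.43), with equal totals (0.25) and without BEAS-2B control replicate 2 (0.24). IL1B was not called with equal totals, with all 18 libraries in 1 fit, at a limit of 0.01, or without any 1 of BEAS-2B control replicates 2 and 3 and H446 control replicates 2 and 3. The list medians of cytokines, neural adhesion, respiratory chain, cancer-testis and endothelial genes changed sign under some alternative, and 34 of 39 did not. The medians were less stable in size, and 31 of 39 changed by over 1.5 times or in sign under at least 1 alternative, 24 of them under one other than the removal of the filter and 4 when a library was left out. The neuroendocrine factor median of 1.07 was 0.48 with the filter of 1 in every library, 0.04 with no filter and 1.66 with a pseudocount of 0.1. The neuronal cytoskeleton median of -1.43 was -0.10 with no filter and -2.42 with that pseudocount, and the junction median of -0.21 was -0.07 with the filter of 1 in every library. The 20p median stayed between -1.41 and -1.17 and the 5p median between 0.66 and 0.80. The cause of these moves was not tested.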
